A study of Mus musculus with 12 samples.

Results

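TRBV26 is the mouse T cell receptor (TCR) beta variable segment that encodes the Vβ3 domain. Its clonotypes were taken from the beta chain tables of 12 libraries as those whose first-listed V gene was TRBV26. They numbered 4082 of 113665 clonotypes. A clonotype is 1 nucleotide sequence of CDR3 (complementarity-determining region 3, the stretch where the V, D and J segments are joined) in 1 library, and its abundance was given in unique molecular identifiers (UMIs), each of which tags 1 cDNA molecule. In 35 of the 4082 clonotypes other V genes were listed behind TRBV26, and these held 0.0527% of the TRBV26 UMIs. A further 46 clonotypes listed TRBV26 behind another V gene and were not counted.

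The libraries came from CD4+ T cells of 6 Rag2-/- mice, which lack mature T and B cells of their own. The cells were taken 6 weeks after intraperitoneal transfer of naive (CD25- CD44- CD62L+) CD4+ T cells, a model of transfer colitis. Donors were Prkaa1 fl/fl mice (WT, replicates 1, 3 and 4) or Prkaa1 fl/fl mice with CD4-Cre (KO, replicates 1, 2 and 3), in which Cre under CD4 control removes AMPKα1 from the CD4+CD8+ thymocyte stage onwards. The strain was C57BL/6, mice were used at 6 to 8 weeks of age, and all 6 recipients belonged to 1 experiment. Each mouse gave a library from the mesenteric lymph nodes (mLN) and 1 from the spleen, so that there were 4 groups of 3 libraries, and the question was whether the receptors of the expanded cells differ between genotypes and organs. The tables hold beta chains only, so the CD4+ label could not be checked against other markers.

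The libraries held 2488 to 493287 UMIs, and a count of 0 allows a share of up to 0.000608% in the deepest and 0.121% in the shallowest. They fell into 2 kinds: in 5 (both organs of WT replicate 1 and KO replicate 1, and the mLN of KO replicate 3) between 2.42% and 5.85% of the clonotypes of 1 UMI had an unusual J end (last 9 CDR3 letters other than the most frequent end of their J segment), against 26.1% to 38.3% in the other 7. Intervals and floors cover counting error only. Where the 2 organs of a mouse were joined, identical CDR3 sequences were merged, which left 3789 TRBV26 clonotypes of 105043 in 6 mice, of which 3258 were in frame, 304 out of frame and 227 in frame with a stop codon.

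In a developing T cell, 1 V segment is joined to a D and a J segment, with letters removed from the segment ends and others added between them. The V segment supplies CDR1 and CDR2 and the first residues of CDR3, and the joined middle of CDR3 mostly faces the bound peptide. Vβ3 is known as a target of superantigens: Vβ3+ cells are deleted in mouse strains that carry certain endogenous mammary tumour proviruses and are retained in C57BL/6, and staphylococcal enterotoxin A stimulates them.

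On GRCm38, Trbv26 (ENSMUSG00000076479.3, annotated as a TCR V gene) lies on the plus strand of chromosome 6 from 41227505 to 41227993. Exon 1, from 41227505 to 41227573, holds the leader, and exon 2, from 41227696 to 41227993, holds the variable domain. Among the V segments tested here, Trbv24, annotated as a pseudogene, is the nearest before it and Trbv29 the nearest after it. Between the end of Trbv26 and Trbd1 lie 305207 bases. The germline letters below are the end of Trbv26 exon 2, the D segments, the J segments of the leading TRBV26 clonotypes and TRBJ2-7, shown because the CDR3s described later are built from them. Capitals mark the letters that belong to CDR3 in TRBV26 (the last 17) and in the J segments, and the D segments stand in lower case.
TRBV26 (chr6:41227934-41227993, +): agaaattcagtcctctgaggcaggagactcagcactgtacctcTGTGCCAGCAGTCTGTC
TRBD1 (chr6:41533201-41533212, +): gggacagggggc
TRBD2 (chr6:41542163-41542176, +): gggactgggggggc
TRBJ1-1 (chr6:41533864-41533911, +): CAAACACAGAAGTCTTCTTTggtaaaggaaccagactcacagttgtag
TRBJ1-4 (chr6:41534811-41534861, +): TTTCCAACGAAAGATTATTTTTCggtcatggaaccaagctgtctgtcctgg
TRBJ1-6 (chr6:41535554-41535606, +): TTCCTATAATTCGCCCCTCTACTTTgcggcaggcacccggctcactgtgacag
TRBJ2-1 (chr6:41542754-41542803, +): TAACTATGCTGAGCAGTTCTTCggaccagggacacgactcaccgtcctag
TRBJ2-5 (chr6:41543453-41543501, +): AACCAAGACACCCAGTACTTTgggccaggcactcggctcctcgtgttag
TRBJ2-7 (chr6:41543810-41543856, +): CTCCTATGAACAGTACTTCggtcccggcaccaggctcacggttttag

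The most abundant TRBV26 clonotype of each mouse and organ is shown next, since the levels of TRBV26 rest in large part on these. Capitals mark the letters between the V and J parts, which hold any D segment and the added letters. There are 8 such clonotypes for 12 libraries, because the same sequence led in both organs of WT replicates 1 and 4 and of KO replicates 2 and 3.
WT replicate 1, both organs (TRBJ1-1, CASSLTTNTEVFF): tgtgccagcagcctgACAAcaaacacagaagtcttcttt
WT replicate 3, mLN (TRBJ2-1, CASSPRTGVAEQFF): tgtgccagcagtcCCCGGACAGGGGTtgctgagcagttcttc
WT replicate 3, spleen (TRBJ2-5, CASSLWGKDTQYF): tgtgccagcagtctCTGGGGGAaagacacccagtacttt
WT replicate 4, both organs (TRBJ1-4, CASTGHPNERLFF): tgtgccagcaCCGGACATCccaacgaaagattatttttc
KO replicate 1, mLN (TRBJ1-1, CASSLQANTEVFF): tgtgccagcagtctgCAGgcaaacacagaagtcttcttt
KO replicate 1, spleen (TRBJ1-1, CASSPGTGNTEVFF): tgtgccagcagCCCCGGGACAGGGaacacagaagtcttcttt
KO replicate 2, both organs (TRBJ1-6, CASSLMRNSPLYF): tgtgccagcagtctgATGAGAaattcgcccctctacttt
KO replicate 3, both organs (TRBJ2-1, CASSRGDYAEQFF): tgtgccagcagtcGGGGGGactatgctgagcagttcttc

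These 8 CDR3s use 5 J segments. Of them 6 are 39 letters (13 residues) long, and the leaders of WT replicate 3 in mLN and of KO replicate 1 in spleen have 42 letters. In the leader of WT replicate 1 the V part differs from the germline by T12C, with positions counted from 1 at the first base of CDR3 and the germline base given first. The germline start of TRBV26, CASSL, is kept in 4 of the 8, and in the others trimming and added letters replaced the residues behind CAS or CASS.

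TRBV26 was a V segment of middle rank, and 1 mouse held by far the most of it. In mLN it took 2.48%, 5.90% and 3.39% of UMIs in WT replicates 1, 3 and 4, and 2.48%, 3.06% and 14.3% in KO replicates 1, 2 and 3. In spleen it took 1.49%, 5.37% and 3.08% in WT, and 2.31%, 3.05% and 6.85% in KO, in the same order. KO replicate 3 was highest in both organs and WT replicate 3 came next, and the genotypes overlapped in both organs. More TRBV26+ cells and more beta chain RNA per cell cannot be told apart in these counts. The counting intervals (95%, Wilson) were narrow beside these differences: the 14.3% of KO replicate 3 in mLN rests on 357 TRBV26 UMIs and has an interval of 13.0% to 15.8%, and the 5.37% of WT replicate 3 in spleen rests on 26484 and has one of 5.31% to 5.43%. In spleen the intervals of WT replicate 4 (3.03% to 3.13%) and KO replicate 2 (2.97% to 3.14%) overlap, as do those of WT replicate 1 and KO replicate 1 in mLN (2.21% to 2.77% and 2.29% to 2.68%), so these neighbours are not told apart at this depth.

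**Figure D1:**
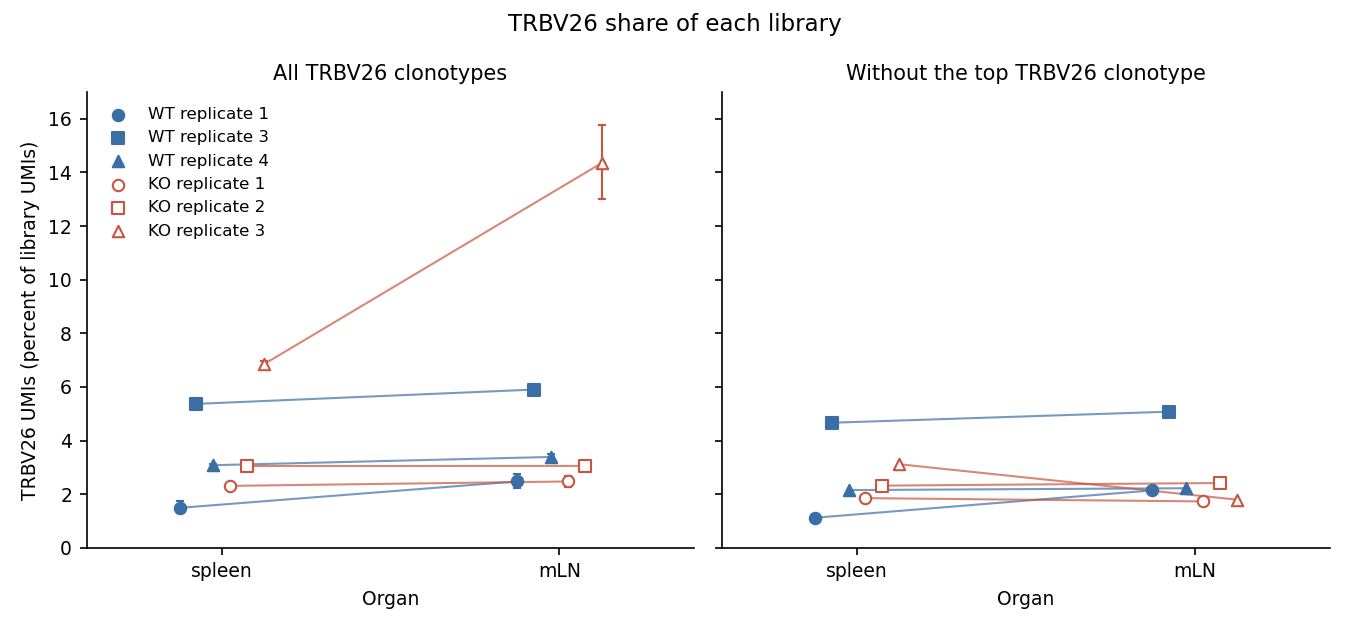
TRBV26 as a percent of the UMIs of each library, by organ and genotype, with all clonotypes and with the most abundant TRBV26 clonotype of each library left out. Each point is 1 library, lines join the organs of a mouse, and error bars in the panel of all clonotypes are 95% Wilson intervals. KO replicate 3 reaches 14.3% in mLN and 6.85% in spleen with all clonotypes and falls among the other mice once its leading clonotype is left out.

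Over the 12 libraries TRBV26 averaged 4.48% of UMIs, which put it at rank 11 of 25 V segments. Its rank within a library ran from 2 (KO replicate 3, mLN) to 14 (WT replicate 4, mLN, and KO replicate 2, spleen). When each clonotype was counted once, whatever its UMIs, TRBV26 took 2.77% to 4.97% of the clonotypes of a library, and 2.79% to 3.89% when clonotypes of 1 UMI were left out. Counted this way the libraries differed much less than by UMIs, where the range was 1.49% to 14.3%.

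TRBV26 did not differ between genotypes beyond the spread between mice. In spleen it averaged 3.31% ± 1.95 (SD, n = 3) in WT and 4.07% ± 2.43 in KO (exact permutation test, 2-sided p = 0.7). In mLN it averaged 3.92% ± 1.77 in WT and 6.63% ± 6.69 in KO (exact permutation p = 0.9). With 3 mice against 3 this test cannot give a p below 0.1. Within the libraries with few unusual J ends the difference of KO minus WT was 0.820 percentage points in spleen (1 mouse each) and 5.93 in mLN (1 WT and 2 KO mice), and within those with many it was 0.724 in spleen (2 mice each) and -1.59 in mLN (2 WT and 1 KO mouse).

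The test over all V segments gave the same picture for TRBV26. On UMIs per V segment the edgeR quasi-likelihood log2 fold change of KO against WT was 0.29 ± 0.58 (SE) in spleen, with a Benjamini-Hochberg adjusted p of 0.768, and 0.75 ± 0.64 in mLN, with an adjusted p of 0.705. In spleen 2 of 25 V segments were called at an adjusted p under 0.05 (8%), TRBV23 and TRBV15, the latter with a log2 fold change of 1.63 ± 0.55 and an edgeR adjusted p of 0.0478, and TRBV26 was not among them. In mLN edgeR called 0 of 23 (0%), with 1 V segment at an unadjusted p under 0.05, and DESeq2 called 0. Both log2 fold changes changed sign without KO replicate 3, to -0.31 in spleen and -0.51 in mLN. Without WT replicate 1 the value in spleen was -0.05.

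The 5 tested neighbours of Trbv26 on the chromosome (TRBV23 and TRBV24 before it, and TRBV29, TRBV30 and TRBV31 after it) were compared in the same fit. TRBV23 was 1 of the V segments called in spleen, and fell from a mean of 2.01% of UMIs in WT to 0.338% in KO, a log2 fold change of -2.58 ± 0.76 with an edgeR adjusted p of 0.0234. The TRBV23 call was lost without WT replicate 3, WT replicate 4, KO replicate 2 or KO replicate 3, and in the fit blocked on replicate number. The TRBV15 call held without KO replicate 3 and was lost when any other mouse was left out, in the blocked fit and with DESeq2. None of the other 4 neighbours was called, and their log2 fold changes ran from -0.48 to 0.91 in spleen. TRBV26, at a mean of 4.48%, was more abundant than its 4 nearest neighbours TRBV23 (1.41%), TRBV24 (0.449%), TRBV29 (1.65%) and TRBV30 (0.232%), while TRBV31, which lies beyond the D and J segments on the minus strand, reached 6.99%. The V segments whose level was most like that of TRBV26 over the 12 libraries were none of these neighbours, but TRBV2 (Pearson correlation of log2(percent + 0.1) 0.78) and TRBV12-1 (0.73) and then TRBV13-2 (0.68). The 12 libraries come from 6 mice and share depth differences, so these are descriptions.

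The TRBV26 share of UMIs was higher in the mLN than in the spleen library in all 6 mice, but in KO replicates 1 and 2 the counting intervals of the organs overlap (2.29% to 2.68% against 2.20% to 2.43%, and 2.96% to 3.15% against 2.97% to 3.14%), so their direction is not told apart at this depth. The 6 of 6 and its p rest on both. The surplus in mLN was 0.987, 0.533 and 0.308 percentage points in WT replicates 1, 3 and 4, and 0.165, 0.00417 and 7.50 in KO replicates 1, 2 and 3. It was thus largest in KO replicate 3 and close to 0 in KO replicate 2. The mean was 1.58 ± 2.92 points (SD, n = 6; exact sign-flip test over mice, an exact permutation test, p = 0.03125, the smallest that 6 mice can give). Of 25 V segments 3 were higher in mLN in every mouse (12%): TRBV26, TRBV12-1 and TRBV13-2. In the edgeR fit with the mouse as a block the log2 fold change of TRBV26 was 0.36 ± 0.19, with an unadjusted p of 0.0844 and an adjusted p of 0.422. This fit called 0 of 25 V segments (0%), with 3 at an unadjusted p under 0.05, and DESeq2 called 1, TRBV12-1.

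KO replicate 3 decided the size of the mean surplus. Without the most abundant TRBV26 clonotype of each library the mean difference was 0.0262 ± 0.772 points, with mLN higher in 4 of 6 mice (exact sign-flip permutation p = 0.906). This came from KO replicate 3, which went from 7.50 to -1.32 points, while WT replicate 1 stayed at 1.02 and WT replicate 3 at 0.413 points and the WT mean moved from 0.609 to 0.501. With all clonotypes but without KO replicate 3, the mean of the other 5 mice was 0.399 points. Counted by clonotypes the mLN share was higher in 5 of 6 mice, and the mean difference of -0.00612 points came from KO replicate 3 at -1.79. By UMIs the mean organ difference was 0.609 points in WT and 2.56 in KO (exact permutation p = 1 for the difference between genotypes). Across the 6 mice the levels in spleen and mLN went together (Pearson correlation 0.908, a description in which KO replicate 3 stands far from the others).

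Few clonotypes made up most of the TRBV26 UMIs. In the mLN the most abundant clonotype took 13.8%, 14.7% and 35.2% of the TRBV26 UMIs in WT replicates 1, 3 and 4, and 30.6%, 21.4% and 89.1% in KO replicates 1, 2 and 3. In the spleen it took 25.0%, 13.8% and 30.8% in WT, and 20.1%, 24.5% and 56.2% in KO. WT and KO mice overlapped in both organs, and KO replicate 3 stood above all other mice in both. The means were 21.2% ± 12.1 in WT and 47.0% ± 36.7 in KO in mLN (n = 3 each, exact permutation p = 0.3), and 23.2% ± 8.66 and 33.6% ± 19.7 in spleen (p = 0.6 by the same exact test). Without KO replicate 3 the difference of KO minus WT was 4.77 points in mLN and -0.842 in spleen.

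The 5 most abundant TRBV26 clonotypes together took a larger share in KO than in WT mLN without overlap. That share was 47.8%, 54.2% and 53.1% in WT replicates 1, 3 and 4, and 65.8%, 63.7% and 98.0% in KO replicates 1, 2 and 3, with means of 51.7% ± 3.39 and 75.9% ± 19.2 (n = 3 each, exact permutation p = 0.1, the smallest possible). Of the 19 V segments that could be compared 4 showed KO above WT without overlap (21.1%), so TRBV26 was 1 of several. The mLN library of KO replicate 3 is the shallowest, with 9 TRBV26 clonotypes in all, and the part of depth in this share was not tested. In spleen the share was 61.3%, 44.0% and 55.6% in the WT mice, compared with 70.4%, 60.7% and 79.0% in KO (53.7% ± 8.81 and 70.0% ± 9.17, n = 3 each, exact permutation p = 0.2). There the genotypes overlapped in WT replicate 1 and KO replicate 2, and 0 of 22 V segments (0%) had KO above WT without overlap.

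**Figure D2:**
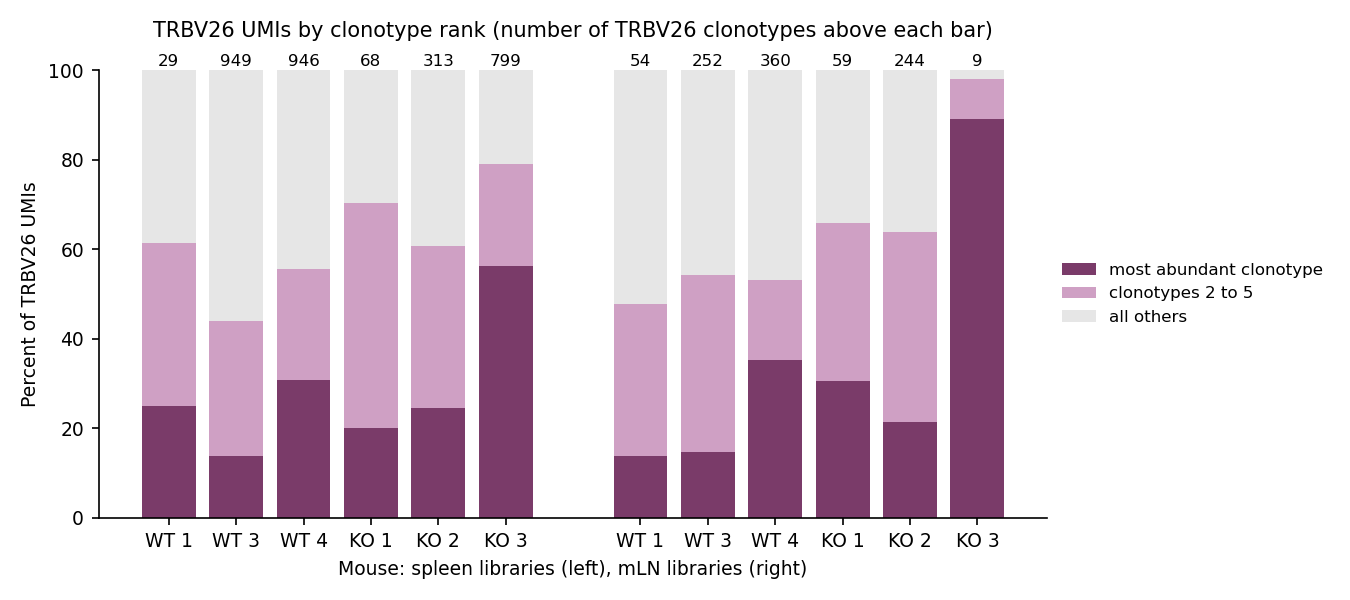
Share of the TRBV26 UMIs of each library taken by its most abundant TRBV26 clonotype, by those of ranks 2 to 5 and by all others, with 1 stacked bar per library and the number of TRBV26 clonotypes above it. The leading clonotype takes 89.1% in the mLN and 56.2% in the spleen of KO replicate 3 and 13.8% to 35.2% in the other libraries.

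Measured against the whole library, the leading clonotype of KO replicate 3 (TRBJ2-1, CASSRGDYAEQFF) stood apart. It had 318 UMIs in mLN, 12.8% of all beta chain UMIs (95% interval 11.5% to 14.2%), and 8505 in spleen, 3.85% (3.77% to 3.93%), and it was the most abundant clonotype of any V segment in both organs. The same sequence had 78 UMIs in the mLN and 1 in the spleen of KO replicate 2. The leader of WT replicate 4 (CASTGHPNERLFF) came next, at 1.19% of its mLN and 0.949% of its spleen library, where it ranked 8 and 9. In the other mice the leaders took 0.342% to 0.868% of a library and ranked 11 to 48. Among the 100 most abundant clonotypes of a library 2 to 9 used TRBV26, most in the spleen (9) and mLN (8) of WT replicate 3.

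Below the leaders lay many small clonotypes. Clonotypes of at least 0.1% of their library numbered 4 to 15 and held 50.5% to 98.9% of the TRBV26 UMIs. In the spleen of WT replicate 3, 909 of 949 TRBV26 clonotypes were each under 0.01% of the library and together held 7.78% of the TRBV26 UMIs. Of the 3789 merged clonotypes 3095 had 1 UMI, 429 had 2 to 9 and 265 had 10 or more. The first 10 germline letters of the TRBV26 part of CDR3 were intact in 1595 of the 3095 with 1 UMI (51.5%), in 400 of the 429 with 2 to 9 (93.2%) and in 259 of the 265 with 10 or more (97.7%). These counts pool the mice. By mouse the share ran from 47.0% to 96.6% with 1 UMI. It ran from 83.3% to 100% with 2 to 9 and from 95.8% to 100% with 10 or more.

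Many clonotypes of 1 UMI resembled the leading TRBV26 clonotype of their own mouse. In KO replicate 3, 273 of the other 798 TRBV26 clonotypes (34.2%) had the length of the leader and differed from it at 1 to 8 positions, against 26 of 2990 (0.870%) in the other 5 mice. Of these 273 clonotypes 270 had 1 UMI. The same share was 12.6% in WT replicate 4, 8.10% in WT replicate 3 and 8.0% in KO replicate 2, against 0.427%, 1.50% and 0.152% in the other mice. In WT replicate 1 (2 of 61, 3.28%, against 1.96%) and KO replicate 1 (3 of 90, 3.33%, against 2.68%), both of them mice with few unusual J ends, it lay near the share in the other mice. No TRBV26 clonotype differed from the leader of its own mouse at exactly 1 position in any of the 6 mice.

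The resemblance extended to the abundant TRBV26 clonotypes. In WT replicate 3, 419 of 924 clonotypes of 1 UMI (45.3%) were within 4 mismatches of a TRBV26 clonotype of at least 100 UMIs in the same mouse. The share was 41.1% in WT replicate 4, 49.6% in KO replicate 2 and 44.7% in KO replicate 3, but 1 of 35 (2.86%) in KO replicate 1. WT replicate 1 had no TRBV26 clonotype of 100 UMIs. Among clonotypes of 1 UMI from the other mice the share was 0.490% to 1.66%. Such abundant clonotypes numbered 28 and 25 in WT replicates 3 and 4, and 5, 15 and 11 in KO replicates 1, 2 and 3. The share within a mouse was thus high in the 4 mice that have a library with many unusual J ends. These mice also had more abundant clonotypes, and the parts of library quality and of that number were not tested. Near copies are here the TRBV26 clonotypes with the length of the leader of their mouse and 1 to 8 mismatches from it. The name marks likeness only, and their origin was not tested. In WT replicate 3 they include a clonotype of 409 UMIs. Such clonotypes can weigh on every value in which each clonotype counts once. Those values were therefore also computed without near copies of the leaders, without clonotypes of 1 UMI and from clonotypes of 10 or more UMIs alone. The recomputed values are given below where they moved.

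**Figure D3:**
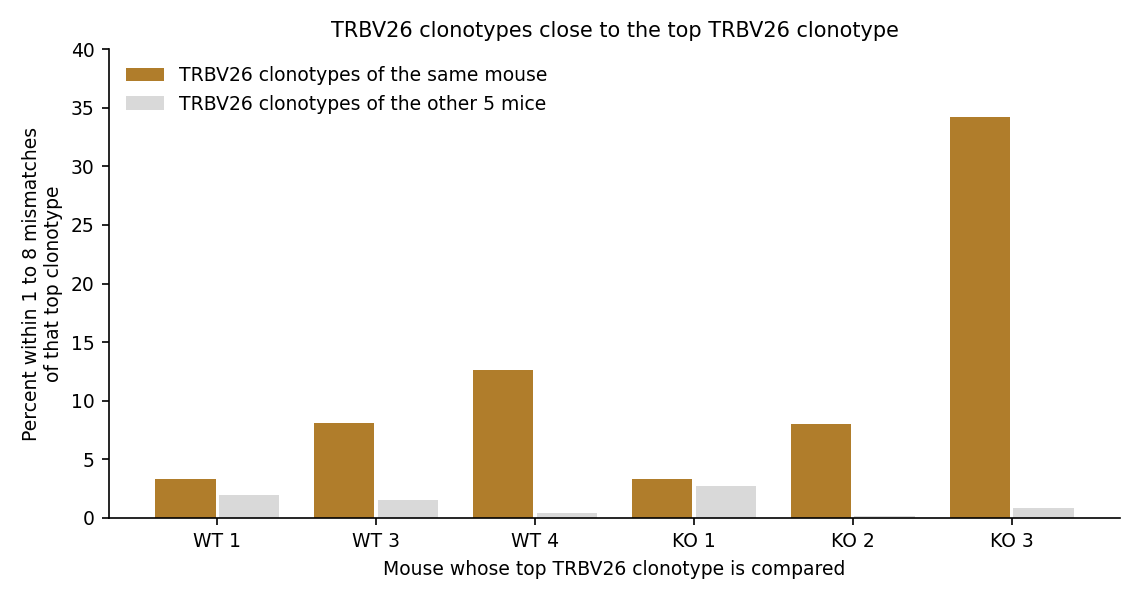
Percent of the TRBV26 clonotypes of each mouse that differ from the leading TRBV26 clonotype at 1 to 8 positions (same length), in the mouse that holds the leader and in the other 5 mice together. KO replicate 3 reaches 34.2% against 0.870%, while WT replicate 1 and KO replicate 1 stay under 4% with both values close together.

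The CDR3s of TRBV26 were about 1 letter shorter than those of the other V segments. Over in-frame clonotypes, each counted once, the mean length was 40.9, 40.5 and 39.9 letters in WT replicates 1, 3 and 4, against 41.4, 41.6 and 41.5 for the other V segments. It was 40.3, 40.8 and 40.3 in KO replicates 1, 2 and 3, against 41.5, 41.4 and 41.8. TRBV26 was the shorter in every mouse, by 1.07 ± 0.432 letters (SD, n = 6; exact sign-flip permutation p = 0.03125, adjusted over 23 V segments 0.0799). Of the 23 V segments 6 were shorter than the rest in every mouse (26.1%), so TRBV26 shared this with several others. The difference was -1.06 letters in WT and -1.08 in KO (exact permutation p = 1). Without clonotypes of 1 UMI it was -0.917 letters, with TRBV26 shorter in 6 of 6 mice, and among clonotypes of 10 or more UMIs it was -0.558, with TRBV26 shorter in 5 of 6 (exact permutation p = 0.156).

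Most of the shortness lay between the segments. The letters between the V and J parts numbered 8.70 ± 0.520 in TRBV26 and 9.69 ± 0.660 in the other V segments, a difference of -0.986 letters with fewer in 6 of 6 mice (exact sign-flip permutation p = 0.03125), and 6 of 23 V segments had fewer in every mouse (26.1%). The TRBV26 part was 13.2 letters long against 13.4 for other V segments, and the J part 18.6 against 18.4. TRBV26 had lost 3.81 letters from its end on average and the other V segments 2.70, a difference with the same sign in 6 of 6 mice. Among clonotypes of 10 or more UMIs the letters between V and J parts were fewer in 5 of 6 mice, with a difference of -0.772, and the loss from the V end stayed larger in 6 of 6. Of all TRBV26 clonotypes, whatever their frame, 7.17% were aligned up to the last germline letter, and 125 of these 270 held all 17 germline letters without a mismatch. A loss of 2 letters was read in 20.9%, of 4 in 25.1% and of 6 in 14.5%.

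**Figure D4:**
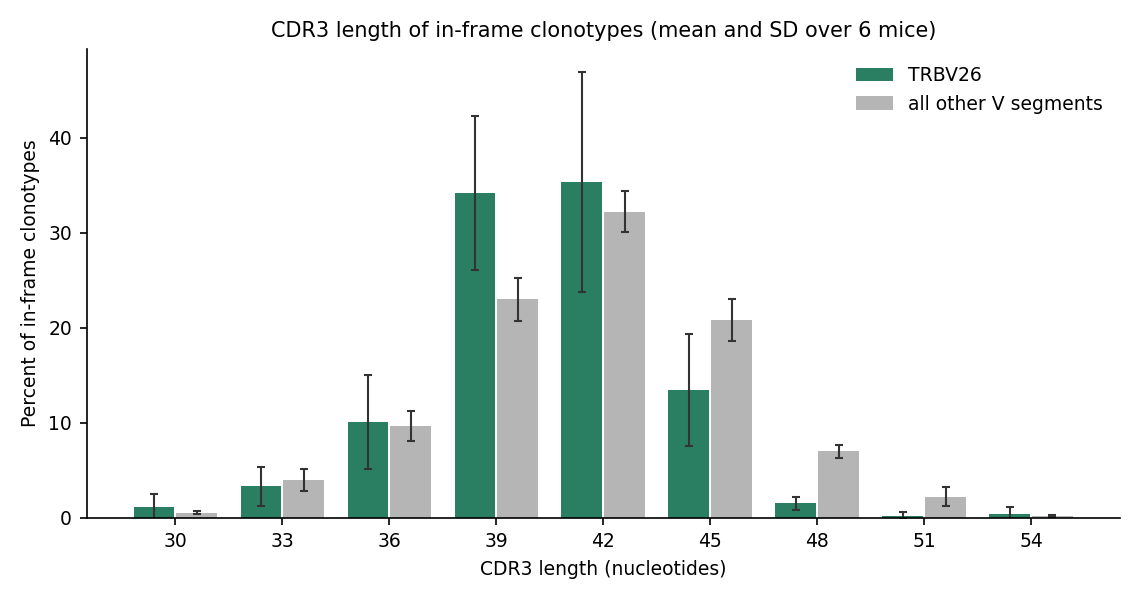
Percent of in-frame clonotypes by CDR3 length in nucleotides, for TRBV26 and for all other V segments, as means over 6 mice with SD. TRBV26 stands above the other V segments at 39 letters (34.2% against 23.0%, but 24.5% without the near copies of the leaders, which all have this length) and below them at 45 (13.5% against 20.8%) and 48 (1.53% against 6.98%).

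By length class, TRBV26 clonotypes of 39 letters made up 34.2% ± 8.09 (SD, n = 6) against 23.0% ± 2.25 for the other V segments, and those of 42 letters 35.4% ± 11.6 against 32.2% ± 2.17. Those of 48 letters made up 1.53% ± 0.707 against 6.98% ± 0.728, and 3.46% ± 3.18 against 7.0% without clonotypes of 1 UMI, where TRBV26 was lower in 5 of 6 mice. The class of 39 letters holds 6 of the 8 leading clonotypes, among them the leader of every mouse over both organs, and with these leaders their near copies. Without the near copies of the leaders, it made up 24.5% ± 4.42 of the TRBV26 clonotypes, higher than in the other V segments in 4 of 6 mice, and the excess of 11.2 percentage points became 1.47. In KO replicate 3 the class went from 47.5% to 17.2%. Near copies have 39 letters by definition, so their removal had to lower this class and does not measure the part of the leaders. The near copies of other V segments were left in this comparison. Without clonotypes of 1 UMI of any V segment the class made up 26.8% against 23.0%, and among clonotypes of 10 or more UMIs 31.4% against 23.0%, each time higher in TRBV26 in 6 of 6 mice. In protein terms 31.5% ± 13.3 of in-frame TRBV26 CDR3s began with the germline CASSL, against 8.57% for other V segments. CASSR (11.6%) and CASSP (10.1%), which arise when the end of the V segment is trimmed, were also more frequent than in the other V segments (3.59% and 4.09%), while CASSQ (3.57% against 8.16%) was less frequent. Without clonotypes of 1 UMI these gaps were wider, with CASSL at 46.8% against 12.7%, CASSP at 15.8% against 5.95% and CASSQ at 3.78% against 11.9%. The other V segments were pooled whatever their germline start. With all clonotypes, 65.1% of TRBV26 CDR3s and 43.7% of the others began with CASS. The starts were not compared among CASS CDR3s alone or with single V segments, so the part of germline sequence in these gaps was not tested.

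No J segment passed the test for a difference in usage, counted per clonotype, between TRBV26 and the other V segments. In the edgeR fit with the mouse as a block 0 of 12 J segments were called (0%), with 2 at an unadjusted p under 0.05, and DESeq2 was not run on these. TRBJ2-7, the last J segment of the second cluster, took 11.6% of TRBV26 clonotypes and 18.0% of the others and was lower in 6 of 6 mice (log2 fold change -0.63 ± 0.27, edgeR adjusted p = 0.232), and 14.1% against 17.5% among clonotypes of 10 or more UMIs, where it was lower in 5 of 6. TRBJ1-5 took 1.68% against 2.81% (-1.21 ± 0.57, edgeR adjusted p = 0.232). On UMIs per J segment in place of clonotypes, TRBJ1-5 was lower with a log2 fold change of -2.78 (edgeR adjusted p = 0.000109), the only J segment called there.

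Several J segments varied widely between mice, some of them J segments of the leaders. TRBJ2-1 took 4.79% to 37.9% of the TRBV26 clonotypes of a mouse, highest in KO replicate 3, whose leader uses it. Without the near copies of that leader the 303 of 799 clonotypes with TRBJ2-1 became 47 of 526, or 8.94%. In the same way TRBJ1-4 in WT replicate 4 fell from 15.8% to 3.68%, and TRBJ1-6 in KO replicate 2 from 9.78% to 2.17%. TRBJ2-5 in WT replicate 3 fell from 13.7% to 6.78%. Clonotypes so like a leader mostly carry its J segment (256 of 273 in KO replicate 3), so these shares had to fall. These shares ended below the share among the other V segments of the mouse (11.4%, 4.59%, 2.31% and 12.4% in the same order). TRBJ1-1, used by the leaders of WT replicate 1 and KO replicate 1, ended above it in both mice. In KO replicate 1 it fell from 17.6% to 14.8%, against 9.41% among the other V segments. In WT replicate 1 it fell from 12.9% but stayed above the 9.12% of the other V segments. Near copies with TRBJ1-1 numbered only 2 in WT replicate 1 and 3 in KO replicate 1. Since the falls had to occur, they do not measure the part of the leaders. TRBJ2-5 took 5.49% to 29.9%, highest in KO replicate 2, whose leader does not use it. TRBJ2-2 and TRBJ1-3, which no leader uses, took 1.60% to 21.0% (highest in WT replicate 1, 13 of 62 clonotypes) and 3.11% to 18.4%. TRBJ1-7 was joined to TRBV26 in 0 of 3789 clonotypes and TRBJ2-6, an annotated pseudogene, in 1.

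**Figure D5:**
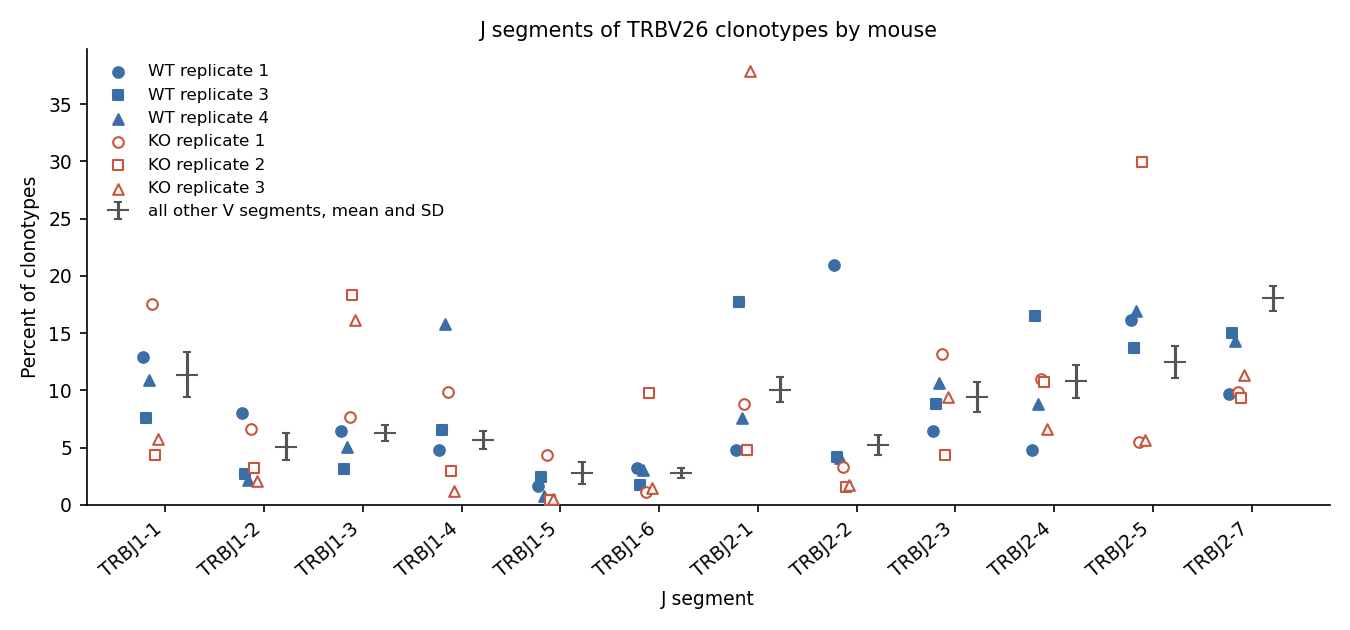
Percent of TRBV26 clonotypes by J segment, each clonotype counted once, with 1 point per mouse, beside the mean and SD over 6 mice of all other V segments. TRBJ2-7 is lower in TRBV26 in every mouse, and several of the single high points belong to J segments of leading clonotypes, such as TRBJ2-1 at 37.9% in KO replicate 3.

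J segments of the first cluster took 35.4% ± 8.43 (SD, n = 6) of TRBV26 clonotypes and 34.0% ± 2.01 of the others, a difference smaller than the spread between mice. D segments were described without a test. Among clonotypes joined to the second cluster, TRBD2 was named in 20.1% ± 9.13 for TRBV26 and 37.2% ± 4.16 for other V segments, and TRBD1 in 29.5% ± 8.05 and 19.6% ± 2.62. No D segment was named in 41.4% of all TRBV26 clonotypes and 31.8% of the others, beside the shorter stretch between V and J parts in TRBV26.

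Out-of-frame rearrangements make no receptor and ride along with the productive chain of the same cell. TRBV26 took 3.92%, 4.29% and 3.15% of the in-frame clonotypes of WT replicates 1, 3 and 4, and 3.80%, 3.27% and 5.03% of those of KO replicates 1, 2 and 3. Of the out-of-frame clonotypes it took 3.14%, 2.48%, 2.29%, 4.92%, 1.85% and 3.69% in the same order. Its in-frame share was the higher in 5 of 6 mice, all but KO replicate 1, by 0.849 ± 1.03 points (exact sign-flip permutation p = 0.125). Adjusted over 25 V segments this sign-flip p was 0.195, and TRBV13-2, TRBV3, TRBV13-3, TRBV2 and TRBV20 were higher in frame in 6 of 6 mice. Weighted by UMIs the in-frame share of TRBV26 was higher in 6 of 6 mice, by 2.25 points (exact permutation p = 0.03125, not adjusted). The weighted share was not computed for other V segments. Sequences out of frame or with a stop codon held 0% to 4.93% of the TRBV26 UMIs of a library and 3.16% to 6.60% of the others, and TRBV26 had the larger share only in the mLN of WT replicate 1 and of KO replicate 1.

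Most expanded TRBV26 clonotypes were present in both organs of a mouse. Of the TRBV26 clonotypes with at least 10 UMIs in spleen, 5 of 5, 65 of 78 and 51 of 58 were found in the mLN of WT replicates 1, 3 and 4, and 15 of 17, 29 of 30 and 9 of 37 in that of KO replicates 1, 2 and 3. KO replicate 3, whose mLN library has 2488 UMIs, was low (24.3%), and the other 5 mice had 83.3% to 100%. The other V segments showed 19.2% in KO replicate 3 and 81.5% to 97.7% elsewhere, and TRBV26 differed from them by 1.32 ± 3.61 points (n = 6, higher in 4 of 6 mice, exact sign-flip permutation p = 0.406). By UMIs, clonotypes shared by both organs held 91.1% to 94.7% of the spleen TRBV26 UMIs, except in KO replicate 3 with 65.6%, and 83.5% to 100% of those in mLN.

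Between mice, TRBV26 CDR3s of any abundance were almost always private. Of the 3789 merged clonotypes 3095 had 1 UMI, and the sharing was not computed without these. Of 3744 nucleotide sequences 3704 occurred in 1 mouse, 35 in 2 mice, 5 in 3 mice and 0 in more, so that 1.07% were shared, against 1.25% for the other V segments. Of the 40 shared sequences 23 were found in WT mice only, 12 in KO mice only and 5 in both genotypes. In 24 of the 40 the highest share of the UMIs of a mouse was at least 100 times the lowest among the mice with the sequence. The part of this imbalance in the sharing was not tested. By amino acid sequence, 54 of 3113 in-frame CDR3s occurred in at least 2 mice.

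The 5 nucleotide sequences found in 3 mice are shown because they are the most widely shared of TRBV26. Capitals mark the letters between the V and J parts, and the first sequence has none.
TRBJ2-4, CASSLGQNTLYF: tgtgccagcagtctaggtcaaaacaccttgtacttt
TRBJ2-5, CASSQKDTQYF: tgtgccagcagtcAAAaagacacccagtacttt
TRBJ2-4, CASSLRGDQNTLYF: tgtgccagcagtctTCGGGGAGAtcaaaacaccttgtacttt
TRBJ2-5, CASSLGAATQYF: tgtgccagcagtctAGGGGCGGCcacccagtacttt
TRBJ2-7, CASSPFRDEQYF: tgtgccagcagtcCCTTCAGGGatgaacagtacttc

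Of these 5 sequences 3 were abundant in 1 mouse and rare in the others. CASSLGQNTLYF had 1404 UMIs in WT replicate 3 and 1 each in WT replicate 4 and KO replicate 3. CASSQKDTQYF had 1080 in WT replicate 4, 2 in WT replicate 3 and 1 in WT replicate 1. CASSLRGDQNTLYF had 379 in KO replicate 1 and 1 each in KO replicates 2 and 3. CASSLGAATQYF had 4, 5 and 3 UMIs in WT replicates 3 and 4 and KO replicate 1, and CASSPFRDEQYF had 6, 1 and 3 in WT replicates 3 and 4 and KO replicate 2. These last sequences were thus rare in every mouse that held them, and both occurred in WT and in KO mice.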

How the data were processed

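TCR beta chain RNA was profiled in 12 libraries of CD4+ T cells (6 mice, spleen and mLN). The authors amplified it by 5′ RACE with UMIs, sequenced it on a MiSeq instrument, collapsed the reads of each UMI in MIGEC, and called clonotypes by MiXCR with default settings. Versions and the V and J reference are not given in the sources used here. The deposited tables hold a whole-number count (taken as UMIs) and the fraction of the library for each clonotype, and were not downsampled.

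Clonotypes were assigned to the first-listed V gene, counts were summed per V segment, and identical CDR3s of the 2 organs of a mouse were merged where stated. Shares used library totals. V segments with at least 10 UMIs in 3 libraries were tested with edgeR 4.0.16 (quasi-likelihood, R 4.3.3), with the mouse as a block for organ and J comparisons, and DESeq2 1.42.0 as an alternative. Single values were tested by exact permutation over mice (NumPy 2.4.6), and Wilson intervals were computed with SciPy 1.17.1. Of these tests only the edgeR fit of KO against WT in spleen was run on simulated data. Its counts were drawn independently for each V segment, without dominant clonotypes. Organs of a mouse deviated together from their group means (correlations 0.361 to 0.846 in 6 mice), as the titles pair them. The named V segments were TRBV26, its neighbours on the chromosome, the 3 most correlated with it, and those a count of 5 or fewer called. The members and lists were chosen with earlier results of these data known. Gene positions and germline letters are from GRCm38, and the tables hold no coordinates.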

Additional observations from a re-analysis of the deposited data

Results flagged for a closer look

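In 23 measures of TRBV26 taken in 6 mice, the mouse farthest from the others was compared with the range of the group by Dixon's criterion, which chance passes in about 1 in 20 groups, and 6 measures had such a mouse. KO replicate 3 stood apart in 3 of them: its mLN share of TRBV26 was 7.50 percentage points above its spleen share, 24.3% of its TRBV26 clonotypes of at least 10 spleen UMIs were found in mLN, and 34.2% of its TRBV26 clonotypes were within 8 mismatches of its leading clonotype. KO replicate 1 was the one mouse whose share of TRBV26 was lower in frame than out of frame, by -1.12 percentage points. TRBJ1-6 took 9.78% of the TRBV26 clonotypes of KO replicate 2, whose leading clonotype uses it, and TRBJ2-2 took 21.0% of those of WT replicate 1, the mouse with the fewest TRBV26 clonotypes.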

How the results depend on the processing

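Of 170 settings over 13 results, 132 left the result as it was. For differences this means the same direction and side of the threshold, and for segments called an unchanged number. The alternatives without the leading clonotypes or their near copies, those on clonotypes of 10 or more UMIs, the joining of clonotypes within 1 mismatch for J usage, the mLN surplus without 1 mouse and the settings for the 19 values below were chosen after seeing the data. TRBV26 in KO against WT spleen (log2 fold change 0.29) turned to -0.11 without the leading clonotypes and ran from -0.31 to 0.83 when 1 mouse was left out. In mLN (0.75) it was -0.67 without the leading clonotypes and -0.15 on clonotypes, and -0.51 to 1.17 without 1 mouse. The number of V segments called in spleen was 1 with DESeq2, without the filter, on clonotypes and without clonotypes of 1 UMI (TRBV23 kept, TRBV15 lost in each), and 0 to 1 without 1 mouse. WT and KO mice with the same number share only a number (correlations of deviations -0.0297 to 0.316); with it as a replicate block TRBV26 was at 0.49 in spleen and 0.64 in mLN, and 0 V segments were called in spleen and 2 in mLN (TRBV1 and TRBV13-2). Without the mouse as a block TRBV26 in mLN against spleen was at 0.51, and DESeq2 called 1 V segment there. The mLN surplus was 0.0262 points without the leading clonotypes and 0.399 to 1.90 without 1 mouse. The spleen difference in the share of the leading clonotype ran from -0.842 to 17.2 without 1 mouse. The length difference was -0.558 from 10 UMIs and -1.18 to -0.968 without 1 mouse, where 5 mice cannot give a p below 0.0625. The frame difference was 2.25 weighted by UMIs, the difference in presence in both organs was -1.42 from 50 UMIs, and 1 J segment was called on UMIs (0 to 1 without 1 mouse, with TRBJ1-5 called without KO replicate 1). Length classes, CDR3 starts, trimming, D usage and J shares (19 values) kept their direction without near copies, without clonotypes of 1 UMI and from 10 UMIs, and 7 of these 57 settings moved a value by more than 1 SD. Apart from the missing mouse or clonotypes, the causes were not tested. Depth limits the mLN of KO replicate 3 most, where a count of 0 allows a share of up to 0.121%.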
